A study of Mus musculus with 8 samples.

Results

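The genes described here are Apoe, 2 further lipoprotein genes (Apoc1 and Clu), 2 lipid exporters (Abca1 and Abcg1) and 1 lipoprotein receptor (Lrp1), 6 of the 22056 genes in the deposited tables. They were taken by symbol, with earlier results of these data known. Apoe itself was chosen by its measured tumour-cell level, which had been seen to be higher in brain allografts, so its brain values are given as a description without a test. The data came from allografts of N2N1G, a mouse small cell lung cancer line, of which 2 had grown in brain, 3 in liver and 3 under the skin. Each gave 1 library of single cells, read at the 3' ends of their mRNA (10x Genomics). Every graft was started with 1000000 cells and taken after 3 weeks. The brain and subcutaneous grafts had been injected directly and the liver grafts by way of the tail vein, so that site and route cannot be told apart in the liver comparisons. The labels give neither the strain nor the age of the hosts, nor whether they were immune-competent, and do not say that each library came from a separate mouse, so p-values measure the spread between libraries. Living cells had been sorted before loading, which can set how many host cells each library holds.

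Apolipoprotein E carries cholesterol and other lipids between cells. In the brain it is made mainly by astrocytes and by activated microglia, in the periphery by hepatocytes and macrophages. ABCA1 and ABCG1 load cholesterol from the cell onto such particles, LRP1 takes particles up, and liver X receptors switch on the genes of APOE, APOC1, ABCA1 and ABCG1 when sterols accumulate. Clusterin, the product of Clu, is a secreted chaperone and apolipoprotein of astrocytes and hepatocytes.

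The genes lie apart, except for Apoe and Apoc1 (GRCm38, GENCODE M21). Apoe (ENSMUSG00000002985) is at chr7:19696109-19699188 on the minus strand and Apoc1 (ENSMUSG00000040564) at chr7:19689481-19692660 on the same strand. Abca1 is at chr4:53030787-53159895 (minus), Lrp1 at chr10:127538161-127621148 (minus), Abcg1 at chr17:31057675-31117988 (plus) and Clu at chr14:65968483-65981547 (plus). RefSeq's table (GRCm38.p6) held promoters of 3 of the 6 genes, those of Apoe, Abca1 and Lrp1. The 250 bases before the start sites are shown for these 3 because the other genes had no entry. All 3 were higher in tumour cells from brain, but they were not picked for that. The RefSeq entry at the GENCODE start was used for Apoe, which has 2 further entries not shown. Both strands were searched for 4 motifs, and capitals mark the matches. They were the half-site of nuclear receptors, written AGGTCA, the box bound by Sp1, written GGGCGG and called a GC box, the core promoter element TATAAA, called a TATA box, and a pair of half-sites spaced as in the known liver X receptor element of Abca1, written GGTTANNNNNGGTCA.
Apoe, chr7:19699189-19699438, minus strand: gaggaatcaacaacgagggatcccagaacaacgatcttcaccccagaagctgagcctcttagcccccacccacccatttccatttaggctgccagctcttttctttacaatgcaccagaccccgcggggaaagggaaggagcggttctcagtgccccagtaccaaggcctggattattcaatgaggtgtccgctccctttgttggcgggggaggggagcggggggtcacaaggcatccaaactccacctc
Abca1, chr4:53159896-53160145, minus strand: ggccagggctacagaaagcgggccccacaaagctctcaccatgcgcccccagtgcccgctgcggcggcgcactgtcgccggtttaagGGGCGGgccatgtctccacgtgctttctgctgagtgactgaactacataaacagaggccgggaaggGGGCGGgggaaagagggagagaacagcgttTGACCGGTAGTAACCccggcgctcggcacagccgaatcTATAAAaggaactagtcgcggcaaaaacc
Lrp1, chr10:127621149-127621398, minus strand: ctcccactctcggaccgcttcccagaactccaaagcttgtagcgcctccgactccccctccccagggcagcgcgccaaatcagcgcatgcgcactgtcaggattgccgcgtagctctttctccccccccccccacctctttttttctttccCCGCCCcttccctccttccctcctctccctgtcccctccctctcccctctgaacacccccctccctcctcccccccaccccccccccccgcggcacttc
The Abca1 window held the spaced pair, on the opposite strand and starting 67 bases before the start site. Because the pair was written after the known element of Abca1, this match was fixed in advance and is no finding. The pair was in 15 of all 32851 promoter entries (0.0457%). The Abca1 window also held a TATA box 29 bases before the start and 2 GC boxes, which occurred in 12.4% and 32.7% of all entries. The Lrp1 window held 1 GC box, and the Apoe window had none of the 4 motifs, a statement about these letters alone. One of the Apoe entries not shown held a TATA box match on each strand. The half-site by itself was in none of the 3 windows and in 14.02% of all entries.

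The tables held 38460 cells, of which 36797 had at least 500 genes and at most 10% mitochondrial UMIs (unique molecular identifiers, here counted RNA molecules). Cells with at least 0.2% of their UMIs on eGFP and Mycl were taken as tumour cells (34719 cells, 2418 to 6276 per library) and the 2078 others as host cells. Near that limit, 430 cells lay between 0.1% and 0.2% and 2239 between 0.2% and 0.4%. Host cells were unevenly spread, with 958 and 351 in the brain libraries, 57, 168 and 90 in liver and 273, 130 and 51 under the skin. Of them, 516 lay in clusters with at least 7 tumour markers and no macrophage marker, among them 129 of 130 and 49 of 51 in the subcutaneous libraries 2 and 3. Summed tumour-cell counts were 21689091 to 62047017 UMIs per library, and 806 of 35976 distinct barcodes occurred in more than 1 library.

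Apoe was higher in tumour cells of both brain libraries than in those of any other library. Its level was 239.8 and 87.2 CPM (UMIs of the gene per 1000000 UMIs of the cells) in the brain libraries, 8.79, 7.82 and 7.94 CPM in the liver libraries, and 23.5, 8.14 and 5.22 CPM under the skin. The brain libraries differed widely from each other, and the lower of them was above the highest other library, subcutaneous 1. Relative to liver the fitted log2 fold change was 4.199 (SE 0.679) and relative to the subcutaneous tumours 3.74 (SE 0.665). Without brain library 1 the values were 3.32 and 2.86, and without subcutaneous library 1 the second was 4.598. Between liver and subcutaneous tumours the log2 fold change of Apoe was -0.46 (SE 0.598, edgeR adjusted p = 0.758), with overlapping libraries.

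Clu rose in brain against both other sites. Its levels were 12.7 and 7.67 CPM in brain, 1.05, 0.711 and 0.820 CPM in liver, and 0.743, 0.306 and 0.443 CPM under the skin, so that no library of another site reached the brain range. Against liver the log2 fold change was 3.44 (SE 0.357), with an edgeR adjusted p of 0.000864. Against the subcutaneous tumours it was 4.37 (SE 0.374), with an adjusted p of 0.000467. Apoc1, which activates lecithin-cholesterol acyltransferase and slows the uptake of lipoproteins, was at 2.35 and 0.723 CPM in brain and at 1.40, 0.481 and 0.302 CPM in liver. It was at 0.0959 CPM (4 UMIs) in subcutaneous library 1 and had 0 UMIs in the other 2 libraries of that site, where 3 UMIs would be 0.0484 and 0.0578 CPM. The brain and liver libraries overlapped and the adjusted p was 0.488, while the fitted difference between brain and subcutaneous tumours passed the test (log2 fold change 5.66, SE 1.16, adjusted p = 0.0159), a value that depends on how 0 counts are treated. That call was lost under 5 of 21 alternatives: without brain library 1 (adjusted p = 0.104), without subcutaneous library 2 (0.0537) or 3 (0.0564), after thinning to 3000 UMIs (0.0561) and with only these 2 sites in the fit (0.0553).

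The exporters differed from each other. Abca1 rose in brain, from 0.142, 0.146 and 0.389 CPM in liver and 0.264, 0.113 and 0.193 CPM under the skin to 3.32 and 1.11 CPM. That is a log2 fold change of 3.16 (SE 0.612) against liver, with an edgeR adjusted p of 0.00833, and of 3.53 (SE 0.621) against the subcutaneous tumours, with an adjusted p of 0.0091. Abcg1 was at 16.6 and 11.5 CPM in brain and between 9.13 and 10.8 CPM in the 6 other libraries. The brain libraries were above all others, but the log2 fold changes of 0.33 against liver (SE 0.164) and 0.52 against the subcutaneous tumours (SE 0.164) did not pass the test (adjusted p = 0.184 and 0.0649). The second passed under 4 of 21 alternatives (adjusted p = 0.0372 to 0.0486), among them DESeq2 and the fits without brain library 2 or subcutaneous library 1. Lrp1 was at 5.99 and 4.50 CPM in brain, 1.64, 1.19 and 1.04 CPM in liver and 3.19, 1.97 and 1.23 CPM under the skin. It rose against liver (log2 fold change 1.90, SE 0.381, adjusted p = 0.00955) and against the subcutaneous tumours (1.30, SE 0.374, adjusted p = 0.0473). The second call was lost under 12 of 21 alternative settings, among them the tumour cells without a macrophage UMI (adjusted p = 0.066). Without brain library 1, the calls against liver were lost for Abca1 (adjusted p = 0.0876) and Lrp1 (0.0647), and that of Abca1 against the subcutaneous tumours as well (0.0873).

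**Figure D1:**
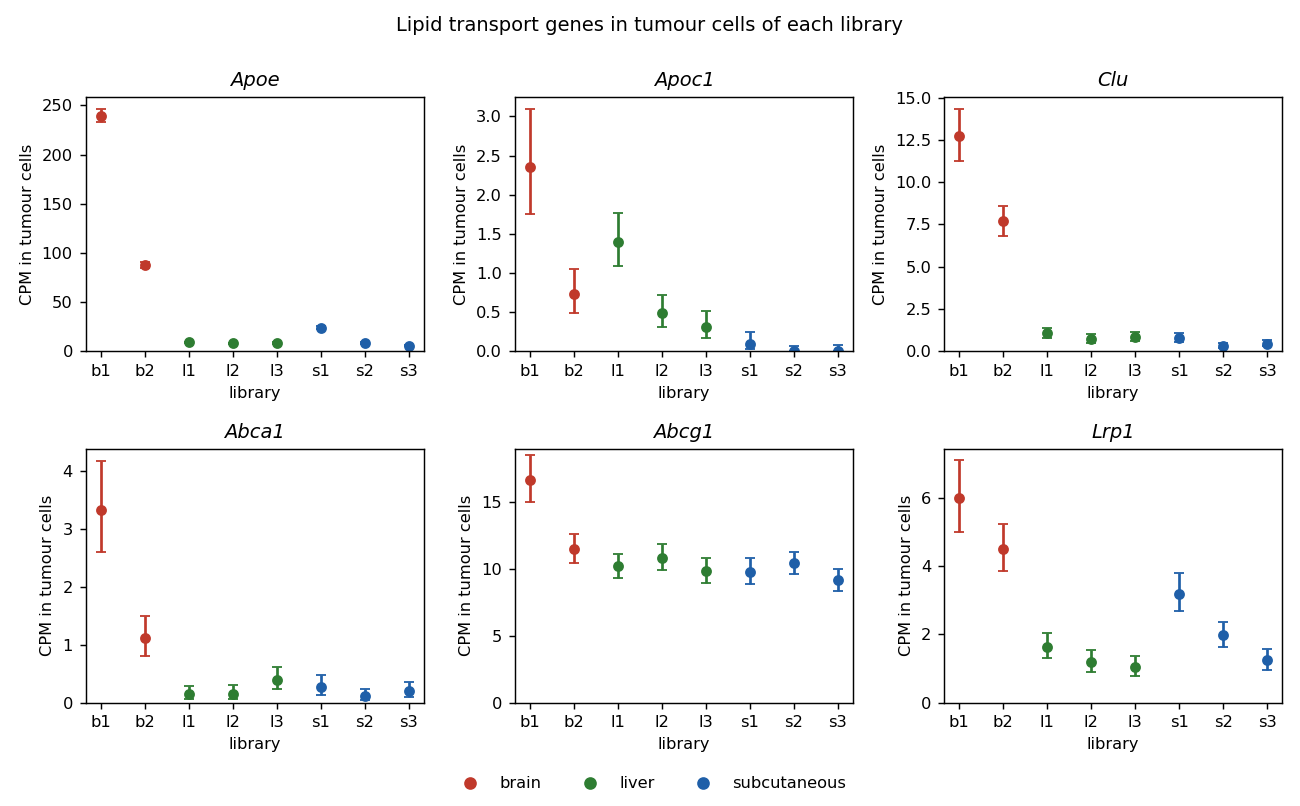
Level in tumour cells (CPM, linear axis from 0) of each gene in each library, brain (b), liver (l) and subcutaneous (s) with the replicate number. Bars are exact 95% Poisson intervals and cover counting error only. The brain points lie above all others for every gene but Apoc1, where liver library 1 exceeds brain library 2.

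The 5 genes other than Apoe were also chosen with earlier results of these data known, so their counts are a description. Of them, 3 rose in brain against liver, where 13.2% of the 13931 genes tested did, and 4 against the subcutaneous tumours, where 8.94% did. None of the 5 fell, where 8.56% and 6.13% of all genes did. In 4 and 5 of the 5 genes the libraries of brain did not overlap those of liver and of the subcutaneous site, a pattern that 53.2% and 46.8% of all tested genes shared. Both brain comparisons use the same brain libraries and are not independent. Their median log2 fold changes were 1.90 and 3.53, against 0.00 for all genes in both comparisons. Between liver and subcutaneous tumours none of the 6 genes passed the test, as against 2.83% of all genes, and the libraries did not overlap for Apoc1 alone, as for 27.7% of all genes. In that comparison Apoc1 had the largest value (4.74, SE 1.12, edgeR adjusted p = 0.0598), and Clu, Abca1, Abcg1 and Lrp1 had 0.93, 0.37, 0.19 and -0.60 (adjusted p = 0.201 to 0.813). Apoc1 passed under 4 of 21 alternatives (adjusted p = 0.000794 to 0.0287), among them the fit without subcutaneous library 1. Clu passed under 2, after thinning to 3000 UMIs (log2 fold change 2.00, adjusted p = 0.0296) and without subcutaneous library 1 (1.32, adjusted p = 0.0415).

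**Figure D2:**
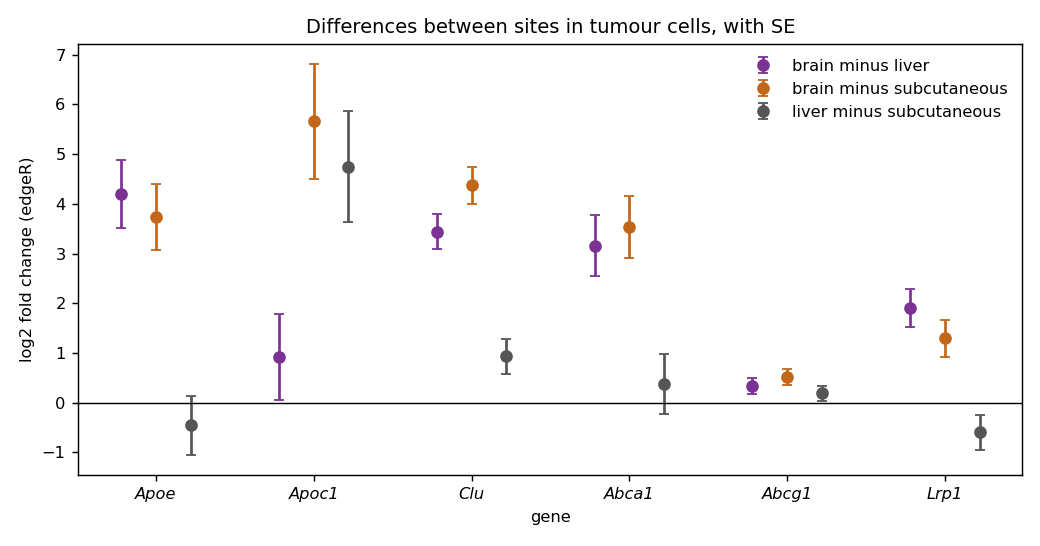
Log2 fold changes of the 6 genes in tumour cells (points, edgeR) with their SE (bars) for the 3 comparisons of sites. The brain comparisons are above 0 for every gene and largest for Apoe, Clu and Abca1 against liver, while liver minus subcutaneous lies within 1 of 0 except for Apoc1.

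In the fit over all libraries, host cells carried more of these transcripts than tumour cells. Apoe was higher in host cells in 8 of 8 libraries (log2 difference 6.82, SE 0.386, edgeR with the library as a block, adjusted p = 5.86e-08), at 307.0 to 6366 CPM. Lrp1 was higher in 8 of 8 (4.26, adjusted p = 1.99e-05), Abca1 in 7 of 8 (5.83, adjusted p = 1.41e-06), Apoc1 in 6 of 8 (8.22, adjusted p = 2.01e-05) and Clu in 6 of 8 (5.48, adjusted p = 0.000251). Abcg1 was higher in 5 of 8 (1.85, adjusted p = 0.00306), and lost its call when cells below 0.5% eGFP and Mycl UMIs were counted as host (0.49, adjusted p = 0.167). Thus 6 of 6 genes passed in a comparison where 18.3% of the 12036 genes tested were higher in host cells and 37.9% differed in either direction. Some of the library counts rest on very few UMIs. Host cells had 1 Lrp1 UMI each in liver libraries 1 and 3, 3 in subcutaneous library 2, and 1 Abca1 UMI in liver library 1. In subcutaneous libraries 2 and 3 nearly all host cells lay in the clusters with tumour markers. Lrp1 and Abca1 kept their calls under 14 alternatives, among them the fit without those clusters.

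Which host cells held the RNA was read from clusters built without any gene of the lipid lists, and no test was made between clusters. Astrocyte-like cells had the highest Apoe of the brain classes, at 30326 CPM (9 cells) and 24863 CPM (23 cells) in the 2 brain libraries. Macrophage-like cells followed at 10465 and 8480 CPM, microglia-like cells at 8391 and 3904 CPM and oligodendrocyte-like cells at 10357 and 3734 CPM. An unnamed cluster led by Ly6c2 and Ccr2, genes of monocytes, had 5577 and 7298 CPM in brain and 2182 CPM in subcutaneous library 1. In liver, a cluster led by Clec4f and Cd5l, genes of Kupffer cells, held 24766 and 17705 CPM in libraries 2 and 3. Hepatocyte-like cells, 3 to 5 per library, had 3997, 1884 and 15098 CPM. Fibroblast or pericyte-like cells of subcutaneous library 1 had 4703 CPM.

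The other genes were divided among these classes differently. Clu was at 5350 and 5885 CPM in astrocyte-like cells and at 2152 to 6004 CPM in hepatocyte-like cells, but at 33.2 and 0 CPM in macrophage-like and 8.09 and 7.22 CPM in microglia-like cells of brain. Apoc1 was at 471.0 to 7328 CPM in hepatocyte-like cells and at 2546 and 2088 CPM in the Clec4f and Cd5l cluster of liver, with 200.7 and 118.4 CPM in macrophage-like cells of brain. Abca1 was at 144.4 and 108.3 CPM in microglia-like cells and Lrp1 at 160.6 and 177.0 CPM. Among the named classes with at least 3 cells in a library Lrp1 was highest in the fibroblast or pericyte-like cells of subcutaneous library 1, with 463.4 CPM. Abcg1 was at 105.8 and 50.6 CPM in microglia-like cells and had 0 UMIs in hepatocyte-like cells.

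**Figure D3:**
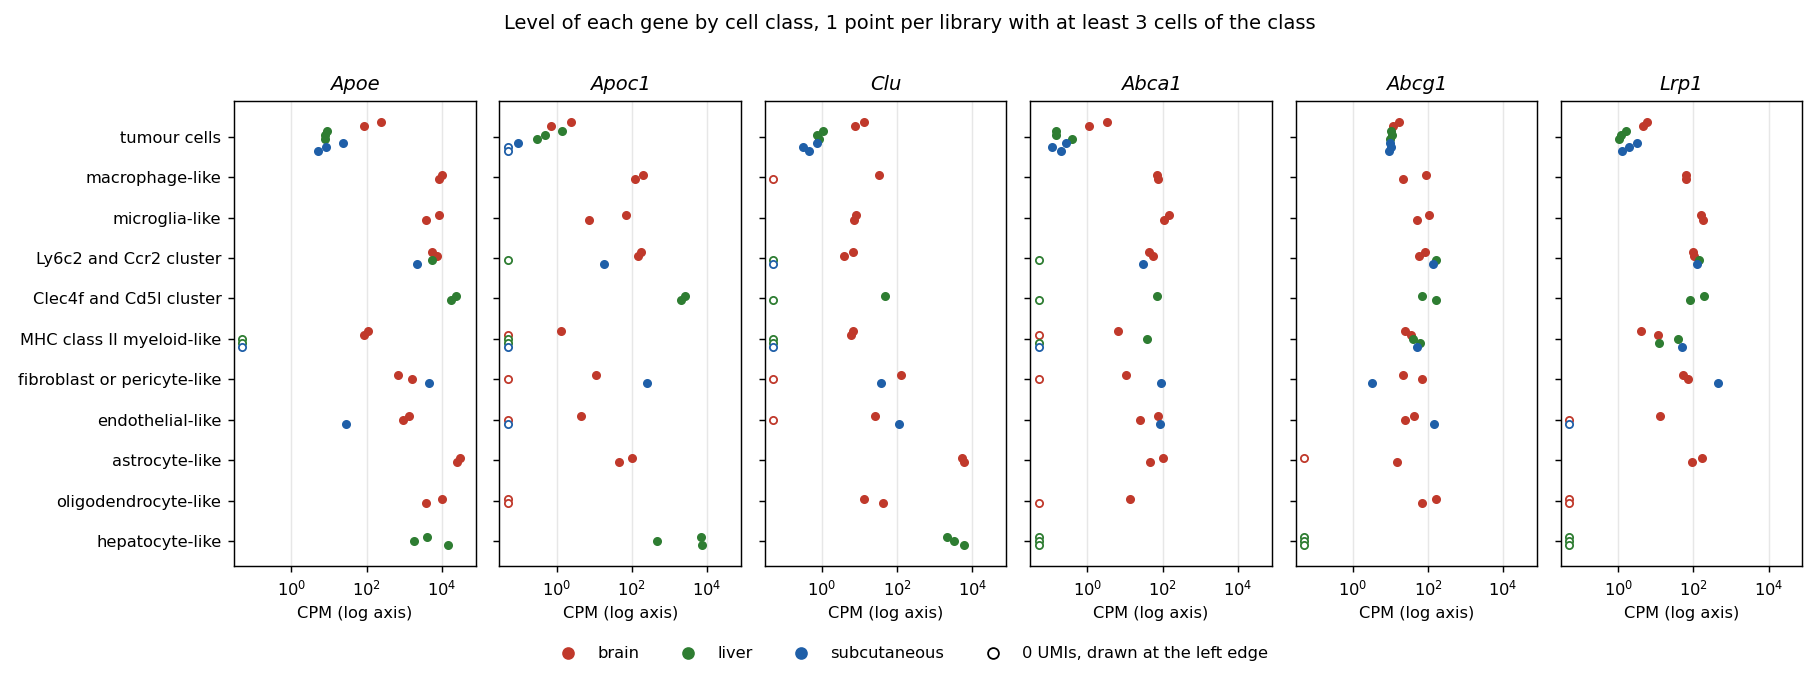
Level of each gene (CPM, log axis) in tumour cells and host cell classes, 1 point per library with at least 3 cells of the class. Open points mark 0 UMIs. Apoe is at or above 1884 CPM in every macrophage, astrocyte, oligodendrocyte and hepatocyte class shown, whereas Clu is above 1000 CPM only in astrocyte-like and hepatocyte-like cells.

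RNA of other cell types was found in the tumour-cell profiles and moved with site. The 13 macrophage markers summed to 557.7 and 86.5 CPM in tumour cells of brain, to 6.91 to 16.6 CPM in liver and to 48.2, 2.47 and 2.47 CPM under the skin, and every one of them was detected in at least 1 library. Brain library 1 and subcutaneous library 1, the highest of their sites in Apoe, were also the highest in macrophage markers. In liver, library 1 was highest in Apoe and library 2, with the lowest Apoe, was highest in macrophage markers. That order rested on few cells, as 2 tumour cells with at least 10 macrophage UMIs held 26.0% of the Apoe UMIs of liver library 1. Without the tumour-cell cluster led by Cd74, H2-Aa and S100a8, described below, Apoe was at 6.50, 7.36 and 7.45 CPM in liver. Library 1 was then the lowest. The 8 astrocyte markers summed to 90.8 and 68.7 CPM in brain, 17.4 to 21.5 CPM in liver and 36.4 to 42.0 CPM under the skin. The last 2 ranges came mostly from Aldoc, while Slc1a3 was at 4.38 and 3.20 CPM in brain and at most 0.168 CPM elsewhere, and Mlc1 at 2.67 and 1.73 CPM in brain and at most 0.144 CPM elsewhere. The 8 oligodendrocyte markers summed to 264.1 and 199.3 CPM in brain and 61.7 to 75.3 CPM elsewhere. The part of these cell types in the differences of Apoe and the other genes between sites was not tested beyond the values that follow.

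The share of tumour-cell Apoe that macrophage RNA could supply was estimated from the complement genes C1qa, C1qb and C1qc. In brain library 1 these stood at 234.8 CPM in tumour cells, 1.08% of their level in the 554 macrophage-like and microglia-like cells. The same fraction of the Apoe of those cells (9016 CPM) is 97.7 CPM, which is 40.8% of what was measured and leaves 142.0 CPM. In brain library 2 the C1q genes were at 0.134% of the level in 116 such cells, which predicts 6.77 CPM or 7.77% and leaves 80.4 CPM. Other marker genes, other limits on eGFP and Mycl and other source cells gave 34.5% to 52.3% in library 1 and 6.27% to 24.2% in library 2. Applied to the 10 other macrophage markers, the same estimate returned a median of 61.0% (7.67% to 154.3%) and 46.4% (0% to 110.6%). For the liver and subcutaneous libraries, too few named macrophages were present. With all host cells as the source the estimates were 46.8%, 56.2% and 16.5% in liver. For subcutaneous library 1 the same source gave 27.1%. That source is a poor stand-in for macrophages in liver, where 46 of 57, 113 of 168 and 72 of 90 host cells lay in the clusters with tumour markers. In subcutaneous libraries 2 and 3 it was nearly all such cells, and no estimate is given.

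For the other genes the macrophage estimate was lowest for Clu and next lowest for Abcg1. Macrophage RNA predicted 1.33% and 0.0944% of the Clu of the brain libraries. Clu was at 33.2 and 0 CPM in macrophage-like cells of brain but at 5350 and 5885 CPM in astrocyte-like cells. Its macrophage estimate therefore does not cover astrocyte RNA, whose part in Clu was not tested. The astrocyte shares below are given for Apoe, and for Clu only as more or less than was measured. Macrophage RNA predicted 50.7% and 6.51% of Apoc1, 39.9% and 12.1% of Abca1, 23.8% and 4.43% of Lrp1 and 6.57% and 0.505% of Abcg1. Astrocyte-like cells were taken as a second source after these values had been seen. Their RNA, scaled by Gja1, Slc1a3, Aqp4 or Mlc1, which were scarce outside brain, predicted 10.3% to 66.2% of Apoe in library 1 and 30.1% to 52.1% in library 2. Scaled by Clu, it predicted 30.1% and 37.2%. By the same scaling, a marker that gave more Apoe than this predicts more Clu than was measured. A marker that gave less predicts less. The markers scarce outside brain lay on both sides in each library. Scaled by Aldoc, Slc1a2 or Gfap, it predicted 184.9% to 595.2%, more than was measured. These figures rest on 9 and 23 astrocyte-like cells, and how far each source contributed was not tested.

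A second reference was a host class with little Apoe, the MHC class II myeloid-like cells, also chosen after its values were seen, so the ratios to it are a description within single libraries and no test. Whether these cells transcribe Apoe themselves was not tested. Apoe was at 111.4 CPM (exact 95% Poisson interval 88.9 to 137.9, 89 cells) in those of brain library 1 and at 87.2 CPM (58.8 to 124.5, 46 cells) in those of library 2. Tumour cells had 2.15 times that level in library 1 (95% interval 1.73 to 2.70, counting error only) and 1.00 times in library 2 (0.699 to 1.48). In the 22 such cells of subcutaneous library 1 there was no Apoe UMI, where up to 26.3 CPM is possible. The C1q genes were at 69.0 and 95.9 CPM in these cells, so that tumour cells had 3.40 and 0.342 times as much. Clu was at 6.63 CPM (5 UMIs) and 5.81 CPM (2 UMIs), and tumour cells had 1.92 (0.812 to 5.96) and 1.32 (0.362 to 10.95) times that level. Abca1 had 5 and 0 UMIs in these cells and Lrp1 3 and 4. For Abcg1 the ratio of tumour cells to these cells was 0.697 (0.435 to 1.19) in library 1 and 0.329 (0.186 to 0.641) in library 2.

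**Figure D4:**
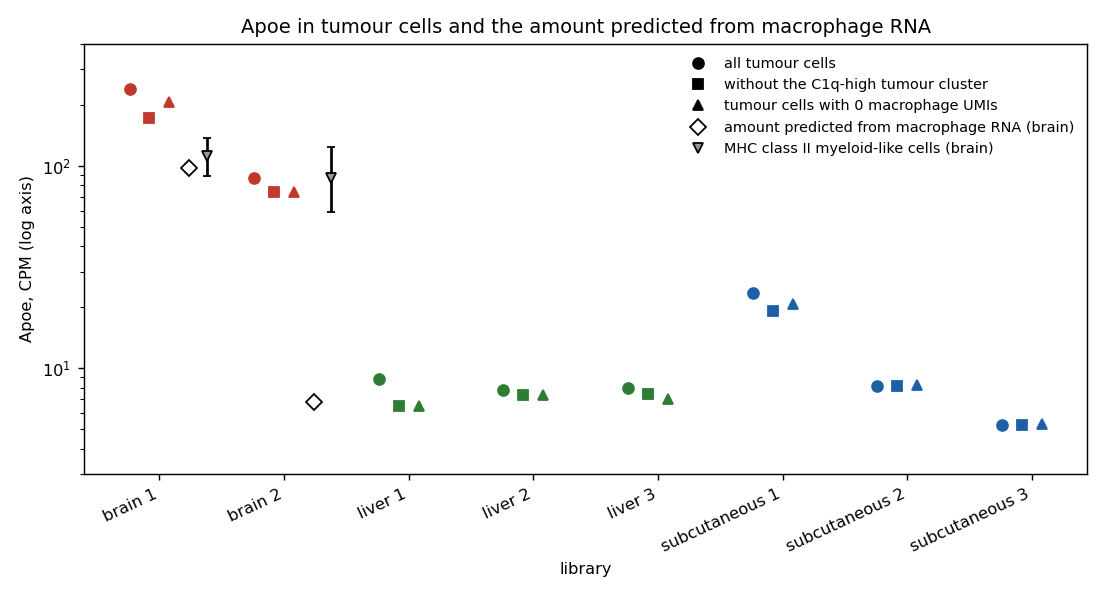
Apoe (CPM, log axis) by library in all tumour cells (circles), in tumour cells without the C1q-high cluster (squares) and in those without a macrophage UMI (triangles), with the level predicted from macrophage RNA (diamonds) and the level in MHC class II myeloid-like cells (inverted triangles, 95% Poisson bars) for brain. Tumour cells of brain stay at or above 73.8 CPM in all 3 selections, and in library 2 they lie within the bar of the myeloid cells.

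Apoe was spread over many tumour cells of brain. After thinning each cell to 3000 UMIs, 38.3% (exact 95% binomial interval 36.3 to 40.4) and 17.0% (15.8 to 18.2) of tumour cells in brain had an Apoe UMI. In the 6 other libraries 1.69% to 3.97% did. Without thinning the shares were 67.5% and 37.4% in brain and 5.37% to 12.02% elsewhere, at median depths of 7971.5 and 8409 UMIs in brain. In the MHC class II myeloid-like cells, with median depths of 8527 and 7200 UMIs, the thinned shares were 31.8% (22.1 to 42.8) and 8.70% (2.42 to 20.8), and the unthinned shares 59.6% and 19.6%. A C1q UMI was present in 23.1% and 3.74% of thinned tumour cells of brain. Apoe remained in tumour cells without any UMI of the 13 macrophage markers, at 206.6 CPM (500 cells) and 74.3 CPM (3016 cells) in brain, 6.50 to 7.37 CPM in liver and 5.27 to 20.7 CPM under the skin. The 500 cells of library 1 were shallow, with a median of 5529.5 UMIs. Clu was at 18.5 and 7.42 CPM in the same brain cells.

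A small number of cells carried much of the rest. In brain library 1, 56 tumour cells with at least 10 Apoe UMIs held 34.5% of all Apoe UMIs, and in library 2, 23 cells held 27.0%. Cells with at least 10 macrophage UMIs, 88 and 33 in number, held 32.5% and 16.2%, at 1377 and 1332 CPM. In subcutaneous library 2 a single cell held 154 of the 505 Apoe UMIs. Doublets were not called, and droplets with a tumour cell and a host cell may be among these cells.

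Clusters of tumour cells, also built without the lipid genes, gave Apoe and Clu in each state of the cells. In brain, Apoe was between 72.2 and 199.4 CPM in 10 of the 11 clusters with at least 50 brain cells, cycling clusters (77.3 to 93.1 CPM) included. In the remaining one, led by Cd74, H2-Aa and S100a8, it was at 1773 CPM beside 3449 CPM of the C1q genes (112 brain cells). No cluster with at least 50 liver or subcutaneous cells was above 31.9 CPM in them. Without the C1q-high cluster Apoe was at 172.1 and 73.8 CPM in brain, and the log2 fold changes were 4.002 and 3.52. Clu was between 3.86 and 22.3 CPM in brain clusters and at most 1.61 CPM in those of the other sites with at least 50 cells. Lrp1 in brain was highest in the C1q-high cluster, at 35.3 CPM. Next was the cluster led by Tm4sf1, Bst2 and Des, which held 35.8% of brain, 1.67% of liver and 4.30% of subcutaneous tumour cells. There Lrp1 was at 7.78 CPM in brain cells, at 4.83 CPM in liver cells and at 4.75 CPM in subcutaneous cells. Without the C1q-high cluster Lrp1 no longer passed the test between brain and subcutaneous tumours (log2 fold change 1.09, edgeR adjusted p = 0.0821).

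**Figure D5:**
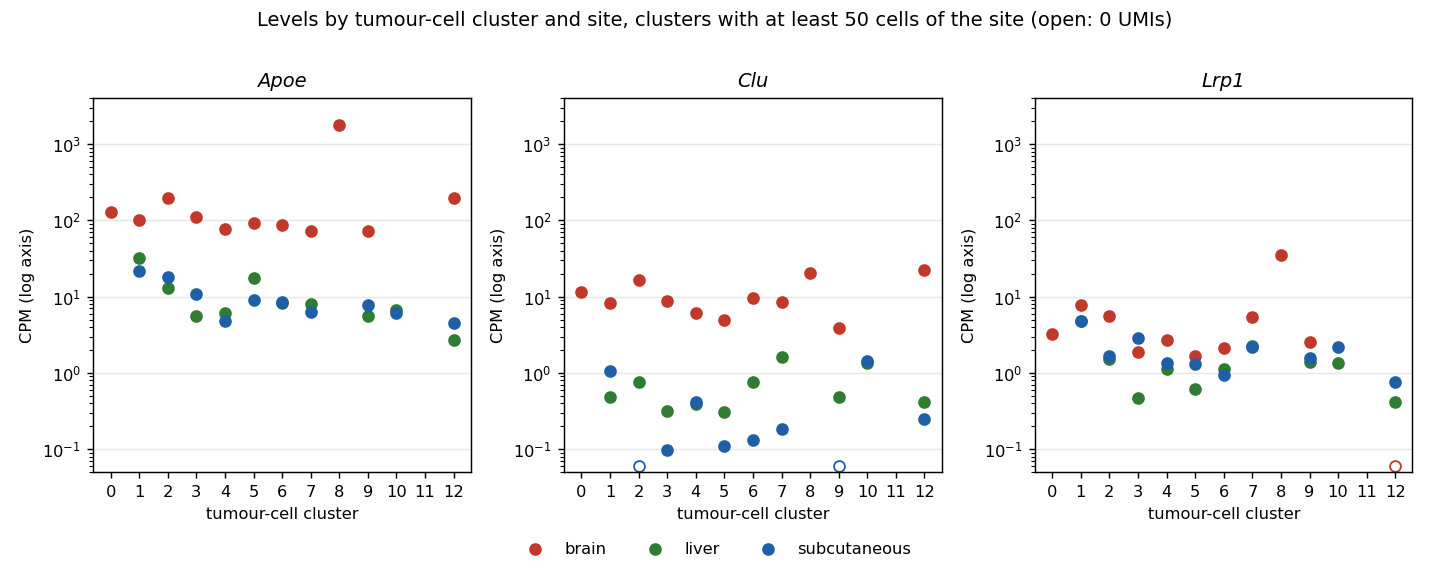
Apoe, Clu and Lrp1 (CPM, log axis) in each tumour-cell cluster by site, for clusters with at least 50 cells of the site, with open points for 0 UMIs. For Apoe and Clu the brain points lie above those of the other sites in every cluster with both, whereas those of Lrp1 lie closer together.

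The 8 genes whose pattern over the 8 libraries was most like that of Apoe, among 9594 genes with a mean of at least 5 CPM, were Ctss, Clca3b, C1qc, Selenop, En1, Hoxd8, Ndrg2 and C1qb. After the mean of each gene was subtracted, the root mean square difference of log2(CPM + 1) was 0.399 to 0.534. Ctss, C1qc and C1qb are on the macrophage list. Ctss was at 70.7 and 11.9 CPM in brain and at most 3.19 CPM elsewhere. The homeobox gene En1 was at 44.8 and 42.4 CPM in brain, 14.5 CPM in subcutaneous library 1 and 1.36 to 2.03 CPM in the 5 others, and Ndrg2 at 26.9 and 20.3 CPM in brain and at most 1.20 CPM elsewhere.

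Other genes of lipid transport were described from 7 lists, chosen with earlier results of these data known. Of 91 listed genes beyond the 6, 90 were in the tables and 74 could be tested. Against liver 13 rose and 9 fell in brain (29.7%, where 21.8% of all genes tested changed), and against the subcutaneous tumours 9 rose and 6 fell (20.3%, where 15.1% did). Plin2, which coats lipid droplets, was at 24.3 and 29.2 CPM in brain and at 9.88 to 15.1 CPM elsewhere (log2 fold changes 1.11 and 1.05, edgeR adjusted p = 0.0028 and 0.00573). Soat1, which esterifies cholesterol, rose by 1.29 and 1.03 (adjusted p = 0.0108 and 0.0332). Nceh1, a cholesteryl ester hydrolase, rose by 1.41 and 1.17 (adjusted p = 0.0119 and 0.0323). The fatty acid transport protein Slc27a1 rose by 0.95 and 1.07 (adjusted p = 0.00381 and 0.00406), from 16.4 to 22.3 CPM elsewhere to 40.8 and 37.8 CPM. Lpl, which frees fatty acids from lipoproteins, rose against liver only by the test (1.11, adjusted p = 0.0149), at 0.47 against the subcutaneous tumours (adjusted p = 0.236). The sterol carrier Osbpl1a rose against the subcutaneous tumours (0.64, adjusted p = 0.0285).

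Genes that fell in brain included Mfsd2a, the carrier of docosahexaenoic acid in lysophospholipids. It was at 49.1 and 44.3 CPM in brain, 102.9, 150.3 and 132.4 CPM in liver and 75.3, 239.9 and 227.2 CPM under the skin (log2 fold changes -1.58 and -1.96, edgeR adjusted p = 0.0455 and 0.0312). Bcam, a laminin receptor encoded near Apoe, fell from 74.8 to 78.2 CPM in liver and 53.2 to 68.6 CPM under the skin to 35.6 and 37.3 CPM (-1.17 and -0.78, adjusted p = 0.000864 and 0.00572). Of the 9 tested genes of the Apoe locus, Bcam was the 1 that fell, where 8.56% and 6.13% of all genes did. None but Apoe, itself chosen for its level, and, against the subcutaneous tumours, Apoc1 was higher in brain. Of all genes, 13.2% and 8.94% were. Slc27a3 fell against the subcutaneous tumours (-0.54, adjusted p = 0.0362). Of the liver X receptors, Nr1h2 fell against liver (-0.48, adjusted p = 0.0113) and Nr1h3 did not pass (-0.20, adjusted p = 0.714). Among 14 factors and targets of these receptors, 4 were higher and 1 lower against liver, where 13.2% and 8.56% of all genes were. Against the subcutaneous tumours 4 were higher and none lower, where 8.94% and 6.13% were. Abca1 is in both counts, and so is Apoe, which was chosen for its level in brain. The rises also held Scd1, a fatty acid desaturase, at 2.21 and 2.35 CPM in brain and at most 0.145 CPM elsewhere (log2 fold changes 5.57 and 4.36).

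Apoa1, Apoa2, Apoa5 and Apoc3 were lower in brain than in liver tumour cells. They are 4 of the 12 apolipoproteins tested, where 8.56% of all genes were lower. Apod and Clu were higher, as was Apoe, which was chosen for it, where 13.2% of all genes were. Apoa2 was at 4.58, 0.648 and 0.345 CPM in liver and at 0.046 and 0.026 CPM in brain. The 8 hepatocyte markers, of which Apoa2 is one, summed to 23.99, 5.44 and 8.37 CPM in tumour cells of liver and to 11.7 and 61.0 CPM in those of brain. In brain nearly all of that was Ttr, a gene also of the choroid plexus, at 11.5 and 60.7 CPM against 2.55 to 4.21 CPM in liver. Alb was at 8.65, 0.753 and 2.85 CPM in tumour cells of liver and had 0 UMIs in those of brain. The part of hepatocyte RNA in these differences was not tested. Likewise Trem2, a lipid receptor of macrophages and microglia, was at 24.9 and 2.92 CPM in tumour cells of brain, in the order of the macrophage markers, and at most 0.125 CPM elsewhere. Of the receptors, Vldlr was lower in both brain and liver than in subcutaneous tumours (log2 fold changes -1.57 and -2.42, edgeR adjusted p = 0.038 and 0.019), and Lrp8, Sorl1 and Scarb1 passed no test between sites.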

How the data were processed

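The authors deposited 1 matrix of whole-number UMI counts per library, with gene and barcode tables. Cell Ranger, STAR and mm10 are named in the submitters' processing notes, and the matrix headers carry version 3.0.0, per the file headers. The annotation release is not given in the sources used here. Counts were summed per library and cell class and compared with edgeR 4.0.16 in R 4.3.3 (TMM factors, filterByExpr, robust quasi-likelihood F tests, Benjamini-Hochberg over all tested genes, threshold 0.05), fitted to all 8 libraries together with site as the factor. SEs are the log2 fold change divided by the root of F. Host and tumour cells were compared with the library as a block. CPM are summed UMIs per 1000000 UMIs of the class. Cells were clustered in scanpy 1.11.5 (2000 variable genes, 30 components, 15 neighbours, Leiden resolution 1 for host and 0.5 for tumour cells). A cluster was named from at least 3 markers found in 20% of its cells, and stayed unnamed where its leading genes were those of another class, or where its depth was low and none of its markers was among its leading genes. Doublets were not called. In the simulated brain and liver comparison, 93% of 4-fold and 73% of 2-fold changes were recovered on 13800 genes, with 6.74% false calls. The false share was 7.73% for brain minus subcutaneous (13800 genes) and 11.3% for host minus tumour (11884 genes).

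The 6 genes, the lists and the markers were chosen with earlier results of these data known. Other genes were named by a rule: up to 5 listed genes per direction and comparison with the largest change among those past the threshold with a mean of 5 CPM, and the 8 genes most like Apoe. Apoa1, Apoa2, Apoa5, Apoc3, Apod, Scd1, Trem2, Vldlr, Nr1h3, Lrp8, Sorl1 and Scarb1 were named after their values were seen. Intervals cover counting error only. DESeq2 1.42.0, RLE size factors, other cell limits, thinning and leaving out each library were alternatives. Values of 2 listed genes are not reported here.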

Additional observations from a re-analysis of the deposited data

How the results depend on the processing

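Clu kept its direction and its calls in both brain comparisons under all 21 alternatives (log2 fold change 2.83 to 3.77 against liver, 3.98 to 4.98 against the subcutaneous tumours). None of these alternatives was aimed at astrocyte RNA, and the part of that RNA in Clu was not tested. Reversals occurred only in differences that had not passed, and their cause was not tested. Apoc1 in brain minus liver was -0.10 without brain replicate 1 (-0.10 to 1.82 over the libraries left out). Abca1 in liver minus subcutaneous was -0.23 without liver replicate 3 (-0.23 to 0.67). Apoe in liver minus subcutaneous was 0.40 without subcutaneous replicate 1 (-0.83 to 0.40). Leaving out 1 library gave 3.32 to 4.76 for Apoe in brain minus liver and 2.86 to 4.598 in brain minus subcutaneous. Abcg1 lost its host call at the 0.5% limit (0.49). Counts of lipid genes called, the 6 included, were 17 higher and 9 lower in brain against liver, 14 and 6 in brain against subcutaneous, and 2 and 1 in liver against subcutaneous. These were 32.5%, 25% and 3.75% of the 80 tested, beside 21.8%, 15.1% and 2.83% of all genes. Leaving out 1 library gave 9 to 19 and 2 to 9, 6 to 23 and 0 to 14, and 0 to 6 and 0 to 2. The share of all genes called moved as well. In brain against subcutaneous it was 34.3% without subcutaneous replicate 1 and 4.75% without subcutaneous replicate 3. DESeq2 called 10 lower in brain and 8 higher in liver against subcutaneous, where it called 19.3% and 7.58% of all genes in either direction. Cells without macrophage UMIs gave 3 and 4, and only the 2 sites compared gave 2 and 0, with 9 higher in brain. Thinned cells gave 4 lower in brain against liver and 1 higher in liver against subcutaneous, and leaving out the C1q-high and haemoglobin clusters also gave 1. Mean shares of tumour cells with an Apoe UMI moved with depth. Without thinning they were 52.4% for brain, 6.56% for liver and 7.62% for subcutaneous cells, at 5000 UMIs 3.04% in liver and 3.96% in subcutaneous tumours, and at 2000 UMIs 1.37% in liver. Whether the replicate numbers pair the libraries could not be decided. Deviations from the site means correlated at -0.127 to 0.25 between same-numbered libraries and at -0.302 to 0.303 between the others. With 2 brain libraries such deviations mirror each other, so these values cannot exclude pairing. With the replicate number as a block, 4 lipid genes were higher in liver against subcutaneous and Apoc1 passed there (4.82, edgeR adjusted p = 0.0287).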
